A study of Mus musculus with 96 samples.

Results

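Cmpk2, Rsad2, Isg15, Usp18, Ifih1 and Adar are 6 antiviral effector and RNA sensing genes whose transcripts were followed in mouse RAW 264.7 cells, an established macrophage-like line. Members were every probe whose platform gene symbol is one of these names. That gave 7 of the 16281 probes, 2 of them for Isg15 and 1 for each other gene. RNA of treated cells was set against RNA of untreated cells of the same time on 2-colour arrays, and each value is the log2 ratio of treated over untreated (called the response below). A response of 1 is a doubling. Cells received LPS with IFNG or LPS with 2MA for 1, 2 or 4 h, LPS alone (100 ng with 100 pM LPS binding protein) for 30 min or 1, 2 or 4 h, IFNG alone (interferon gamma, 5 nM) for 1, 2 or 4 h, or 2MA alone (2-methyl-thio-ATP, 500 uM, although 1 label gives the dose in nM) for 1, 2 or 4 h. Each of the 16 groups has 3 numbered sets, and each set has 2 arrays with the dyes swapped, which gives 96 arrays. The labels say neither that sets are separate cultures nor whether treatments of one time share untreated RNA, so each p-value reflects only how far the sets vary, and that variation could be technical.

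LPS, a cell wall component of Gram-negative bacteria, acts through the receptor TLR4 and, among much else, makes macrophages secrete interferon beta. Secreted interferon beta then acts back on the cells through a transcription factor complex that binds interferon-stimulated response elements, whereas IFNG acts mainly through gamma-activated sites. Among the effectors, Rsad2 (viperin) is an enzyme that makes a chain-terminating nucleotide, and Cmpk2, its chromosomal neighbour, is a nucleotide kinase of mitochondria. Isg15 encodes a ubiquitin-like protein, and Usp18 encodes the protease that removes it and also restrains signalling by the type I interferon receptor. Ifih1 (MDA5) senses long double-stranded RNA, and Adar edits adenosine to inosine in such RNA, which keeps the cell's own RNA from triggering that sensor.

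Promoter sequence is shown for 4 members because interferon acts on such genes through short promoter elements. The RefSeq table (build GRCm38.p6) holds 250 bases before to 50 bases after each gene's start, with entries for 5 of the 6 genes. Usp18 had no entry, and Adar had 3. The core of an interferon-stimulated response element was searched as GAAANNGAAA on both strands, with overlapping matches counted, and matches are in capitals. Each sequence runs 5′ to 3′ on the gene's strand.
Isg15 (chr4:156200769-156201068, minus strand): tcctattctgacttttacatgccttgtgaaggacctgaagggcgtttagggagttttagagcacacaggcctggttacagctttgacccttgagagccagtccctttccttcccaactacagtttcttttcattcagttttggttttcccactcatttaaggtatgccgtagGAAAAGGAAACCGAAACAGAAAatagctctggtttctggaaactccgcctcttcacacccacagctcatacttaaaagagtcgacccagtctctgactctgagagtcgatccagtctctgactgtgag
Rsad2 (chr12:26456403-26456702, minus strand): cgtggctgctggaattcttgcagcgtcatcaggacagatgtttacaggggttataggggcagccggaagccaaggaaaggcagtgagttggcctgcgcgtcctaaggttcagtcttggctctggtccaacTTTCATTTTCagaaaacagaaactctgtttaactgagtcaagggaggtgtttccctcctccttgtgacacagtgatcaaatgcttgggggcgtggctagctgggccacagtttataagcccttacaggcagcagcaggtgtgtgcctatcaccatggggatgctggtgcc
Ifih1 (chr2:62646206-62646505, minus strand): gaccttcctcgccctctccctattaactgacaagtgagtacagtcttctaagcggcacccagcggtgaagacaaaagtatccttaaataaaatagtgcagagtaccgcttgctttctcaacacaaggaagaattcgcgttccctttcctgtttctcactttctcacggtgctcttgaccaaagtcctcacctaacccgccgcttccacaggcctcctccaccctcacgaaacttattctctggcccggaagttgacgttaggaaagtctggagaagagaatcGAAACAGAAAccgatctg
Cmpk2 (chr12:26468965-26469264, plus strand): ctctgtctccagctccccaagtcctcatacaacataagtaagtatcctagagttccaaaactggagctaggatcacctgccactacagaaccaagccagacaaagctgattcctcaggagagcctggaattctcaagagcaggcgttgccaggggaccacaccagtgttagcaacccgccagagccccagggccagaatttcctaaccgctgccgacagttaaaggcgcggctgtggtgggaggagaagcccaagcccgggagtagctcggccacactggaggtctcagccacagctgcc

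Isg15 held 3 overlapping matches, which begin 78, 72 and 66 bases before the start. Rsad2 held 1 match on the opposite strand, beginning 120 bases before the start. Ifih1 held 1 match beginning 32 bases past the start. No exact match lay in the Cmpk2 window or in any of the 3 Adar windows. Sequences 1 letter away from the motif were not counted, such as GAAAGTGAAC in 1 Adar window. The motif was present in 1131 of the 32851 promoter windows of the table (3.44%). A core of the gamma-activated site, TTCNNNGAA, was found in 1 Adar window among the members and in 8.3% of all windows. A core like that of NF-kB sites, GGGNNNNTCC, which lay in the Cmpk2 window 8 bases before the start, was found in 19.2% of windows. A match is a description of the letters and not a site of binding.

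Cmpk2 and the Isg15 probe 164 had a value on all 96 arrays. The other Isg15 probe, 12272, had a value on 18 arrays, none of them more than 0.62 from 0, in no group with 2 complete sets, so it was not tested and Isg15 stands for probe 164 below. Rsad2 had no value on any of the 6 arrays at 4 h of LPS with 2MA or at 4 h of LPS, and 1 value at 4 h of LPS with IFNG. Ifih1 likewise had no value in either of the first 2 of these groups and 2 values at 4 h of LPS with IFNG. Usp18 lacked 4 arrays and Adar lacked 7.

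**Figure D1:**
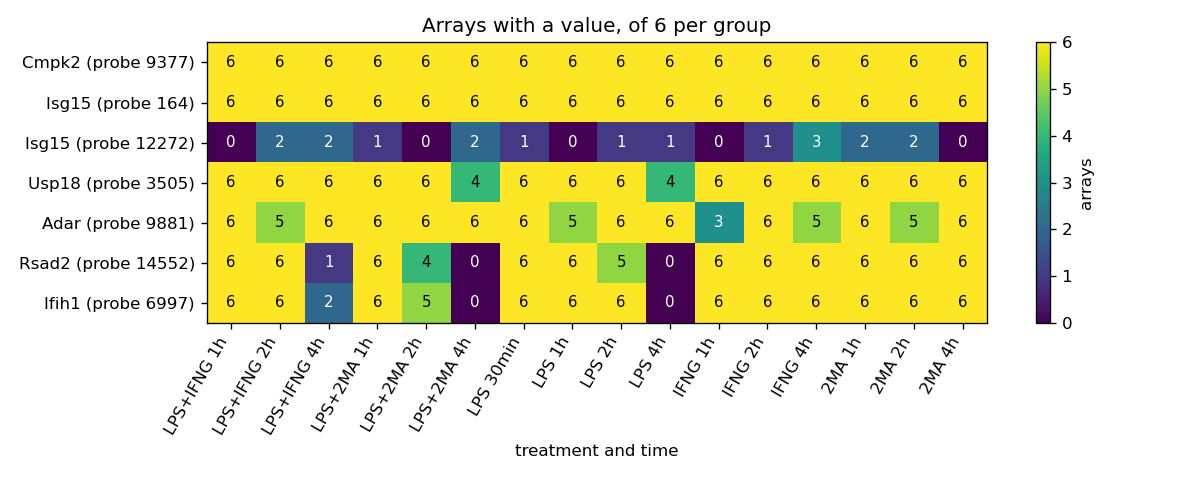
Number of arrays with a value (colour and digit, of 6) for each probe of the members (rows) in each treatment and time (columns). The empty cells of Rsad2 and Ifih1 lie at 4 h of LPS with 2MA and of LPS alone, and Isg15 probe 12272 has at most 3 arrays in any group.

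The gaps of Rsad2, Ifih1 and Usp18 lie in groups of high response, and those of Adar lie in groups where its values were low or moderate. Over all probes with values on at least 5 arrays at 2 h of LPS, 2 of the 45 with a mean above 3 had no value at 4 h of LPS (4.44%), and both are members, Rsad2 and Ifih1. Among probes with a mean between -1 and 1, 1 of 14260 had none (0.00701%). The highest single values were 5.19 for Rsad2 and 4.37 for Ifih1, against 6.11 for Cmpk2, which kept all its values, and a largest value in the table of 6.64, which is log2 of 100. Why the values are missing was not tested. Rsad2 and Ifih1 at 4 h of any LPS treatment are therefore described only by the arrays that exist.

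A set value is the mean of both dye orientations. Cmpk2 and Isg15 had set values in at least 2 sets of all 16 groups and entered the limma fit across all groups with 11593 genes and unnamed probes. Rsad2, Usp18, Ifih1 and Adar did not, and were tested probe by probe in the comparisons whose groups each had 2 set values, a fit added after the values were seen. P-values were adjusted by Benjamini-Hochberg over everything tested in a comparison, and a call below means an adjusted p under 0.05. Both fits treat sets as independent, and the last section gives the calls that differ with the set number as a block. The dye-swapped arrays differed most for Isg15, whose response was on average 0.62 higher with treated RNA in Cy3 than in Cy5, and this gap was above 0 in 47 of 48 sets. As a check of direction, Il1b and Tnf averaged 4.75 ± 0.11 and 3.19 ± 0.57 at 4 h of LPS, and Irf1 and Socs1 averaged 3.45 ± 0.50 and 2.96 ± 0.18 at 1 h of IFNG (SD, n = 3 sets), above 0 on all 6 arrays each. Ratios give no level of a transcript, so the macrophage identity of the cells could not be checked from marker levels, and a change in RNA per cell cannot be told apart from a change in the share of cells that respond.

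LPS raised all 6 genes, though not all were called at 1 h. After 1 h, Rsad2, Ifih1 and Isg15 rose and Cmpk2, Usp18 and Adar did not pass the test. All 6 rose by 2 h, and the 4 members with set values at 4 h had higher means there than at 2 h. Cmpk2 reached the largest LPS response measured among them, 5.47 ± 0.29 at 4 h (SD, n = 3), which is 44.4-fold.

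Rsad2 gave 1.68, 1.69 and 2.60 in sets 1, 2 and 3 at 1 h and 4.55 and 3.66 in the 2 complete sets at 2 h. These means of 1.99 ± 0.52 and 4.10 ± 0.63 had adjusted p of 8.06e-08 and 2.86e-13 in limma. Ifih1 rose to 1.99 ± 0.29 at 1 h and 3.35 ± 0.36 at 2 h (SD, n = 3), with adjusted p of 1.19e-12 and 9.34e-19 in limma. No set of either gene at 2 h overlapped any set at 1 h. Here and below, overlap only describes the sets, and its share over all genes was not counted. Isg15 was smaller at 1 h, with 0.70, 0.98 and 1.13 (adjusted p 0.000666 in limma). It then gave 2.81, 2.82 and 2.76 at 2 h, and 4.21, 3.74 and 4.10 at 4 h. With the arrays that hold treated RNA in Cy5 alone, Isg15 at 1 h was 0.34 and no longer passed (adjusted p 0.387).

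Cmpk2 gave -0.12, -0.15 and 0.46 at 1 h of LPS, 3.92, 3.18 and 2.08 at 2 h, and 5.74, 5.16 and 5.52 at 4 h. The 1 h sets lay around 0 and the 2 h sets were spread widely, with set 3 lowest. Usp18 averaged -0.13 ± 0.17 at 1 h, 1.02 ± 0.56 at 2 h (SD, n = 3) and 3.39 ± 0.16 at 4 h (SD, n = 2), the last a 10.5-fold rise (adjusted p 3.05e-18 in limma). Adar was the smallest responder, with 1.23, 0.53 and -0.02 at 2 h and 2.09, 1.94 and 1.64 at 4 h. Its 2 h call (adjusted p 0.0255 in limma) was lost when set 1 or set 2 was left out, with treated RNA in Cy5 alone (0.36, adjusted p 0.175) and when only the groups compared were fitted (adjusted p 0.0763). Set 3 was the lowest set with a value at 2 h of LPS for all 6 members.

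At 30 min of LPS none of the 6 members was called by limma, and 0 of 6 had an unadjusted p under 0.05. Of everything tested in the fit across all groups, 1.04%, 5.63%, 16% and 28.6% were called at 30 min and 1, 2 and 4 h of LPS, and in the probe by probe fit 1.12%, 5.45%, 14.7% and 26.6%. Members called numbered 3 of 6 at 1 h, 6 of 6 at 2 h and 4 of 4 at 4 h, all higher. The change over the LPS times was called for all 4 members that could be tested, Cmpk2, Isg15, Usp18 and Adar, against 16.8% of genes and 15.7% of probes. Whether members called at 1 h differ in timing from those called later was not tested. Ifnb1, the gene of interferon beta, averaged 2.09 ± 0.11 at 1 h, 3.42 ± 0.20 at 2 h and 3.20 ± 0.94 at 4 h of LPS (SD, n = 3).

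**Figure D2:**
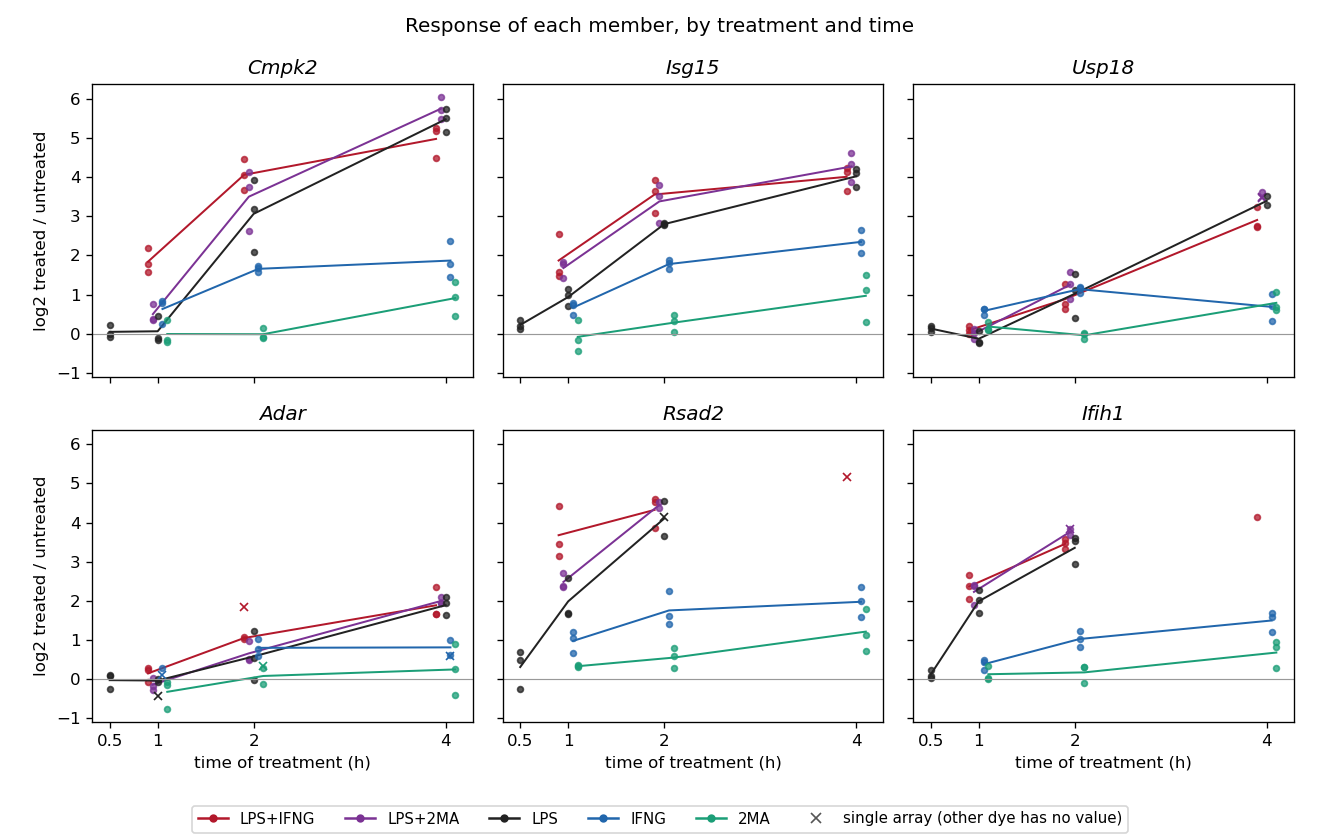
Log2 ratio of treated over untreated (vertical axis) against time in hours (horizontal axis) for the 6 members, 1 panel each. Points are set values, crosses are single arrays whose dye-swapped partner has no value, and lines join the means of groups with at least 2 set values, in 5 colours for 5 treatments. Under LPS, Rsad2 and Ifih1 are near 2 at 1 h while Cmpk2, Usp18 and Adar are near 0, and the panels of Rsad2 and Ifih1 have no LPS mean at 4 h.

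IFNG alone raised all 6 genes by 2 h, to responses between 0.80 and 1.78. At 4 h Isg15 averaged 2.34 ± 0.29, Rsad2 1.98 ± 0.38, Cmpk2 1.87 ± 0.45 and Ifih1 1.50 ± 0.25 (SD, n = 3), and all were called. Adar averaged 0.81 ± 0.28 at 4 h (SD, n = 2). Usp18 had its highest IFNG mean at 2 h, 1.14 ± 0.08, with 0.58 ± 0.09 at 1 h and 0.69 ± 0.34 at 4 h (SD, n = 3). Its change with time was not called with sets treated as independent (adjusted p 0.26 in limma).

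Calls under IFNG numbered 2 of 5 at 1 h (Rsad2 and Usp18), 6 of 6 at 2 h and 6 of 6 at 4 h, all higher. At 1 h 5 of 5 had an unadjusted p under 0.05 in limma. Cmpk2, Isg15 and Ifih1 averaged 0.63, 0.67 and 0.38 at 1 h, with every set above 0. They were not called with sets treated as independent (adjusted p 0.419, 0.0815 and 0.407 in limma). The shares of genes called were 1.13%, 3.42% and 12.4% at 1, 2 and 4 h, and of probes 1.12%, 3.51% and 11.7%. At 1 h, Rsad2 gave 0.68, 1.05 and 1.21 (adjusted p 0.0133 in limma) and Usp18 gave 0.47, 0.63 and 0.63 (adjusted p 0.0204 in limma). All sets of both genes were above 0, yet the Rsad2 call was lost without set 1 or without set 2, and the Usp18 call without any 1 of the sets. Adar at 1 h had 3 arrays with a value, between 0.10 and 0.36, and was not tested. Without set 2 or set 3 the 4 h call of Adar was lost as well, and without set 2 its 2 h call. Over the IFNG times Cmpk2, Isg15 and Ifih1 changed (3 of 5 tested, against 3.86% of genes and 3.67% of probes), and that number fell to 1 without set 1 and to 1 without set 2.

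IFNG and LPS alone differed in opposite directions at the first and the last time for Usp18. At 1 h Usp18 averaged 0.58 ± 0.09 under IFNG and -0.13 ± 0.17 under LPS (SD, n = 3 each), a difference of 0.71 ± 0.20 (SE; adjusted p 0.0417 in limma). At 4 h it averaged 0.69 ± 0.34 under IFNG (SD, n = 3) and 3.39 ± 0.16 under LPS (SD, n = 2), a difference of -2.70 ± 0.22 (SE; adjusted p 1.62e-11 in limma). The sets of the 2 treatments did not overlap at either time. The 1 h call was lost without set 1 or set 2, and with either dye orientation alone.

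The sensor Ifih1 was lower under IFNG than under LPS at 1 h and 2 h, and Rsad2 at 2 h. Ifih1 gave 0.43, 0.49 and 0.23 under IFNG at 1 h, against 2.27, 2.01 and 1.70 under LPS, and 1.03, 1.23 and 0.82 under IFNG at 2 h, against 3.60, 3.53 and 2.94 under LPS. These differences of -1.61 and -2.33 had adjusted p of 5.74e-07 and 1.32e-10 in limma. With sets treated as independent, Rsad2 differed by -1.01 at 1 h (adjusted p 0.103 in limma) and by -2.35 at 2 h (adjusted p 1.46e-05). The Rsad2 call at 2 h was lost without set 1 (adjusted p 0.0669). At 4 h, IFNG minus LPS was -3.60 for Cmpk2, -1.67 for Isg15 and -1.08 for Adar, all called, and the Adar call was lost without set 1 or set 2.

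In all, the IFNG minus LPS difference was called for 2 of 5, 4 of 6 and 4 of 4 members at 1, 2 and 4 h, and only Usp18 at 1 h among them was higher under IFNG. The shares of genes called were 2.54%, 7.1% and 10%, and of probes 2.59%, 6.76% and 9.45%. Leaving out set 1 left 5 of the 10 calls and leaving out set 2 left 6. At 2 h Usp18 and Adar differed by 0.12 (95% interval -0.28 to 0.52) and 0.22 (95% interval -0.31 to 0.75).

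Cmpk2 and Rsad2 were higher at 1 h under LPS with IFNG than under LPS alone. At 1 h Cmpk2 gave 1.77, 1.57 and 2.18 under LPS with IFNG, against -0.12, -0.15 and 0.46 under LPS, a difference of 1.78 ± 0.32 (SE; adjusted p 0.000537 in limma) or 3.43-fold. Rsad2 gave 3.46, 3.15 and 4.43 under LPS with IFNG, against 1.68, 1.69 and 2.60 under LPS, a difference of 1.69 ± 0.32 (SE; adjusted p 0.00123 in limma) or 3.22-fold. No set of either gene overlapped between the treatments. The Cmpk2 call was lost without set 2 (adjusted p 0.0707) and the Rsad2 call without set 1 (adjusted p 0.143), with differences of 1.81 and 1.64.

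In this fit, which treats sets as independent, the gap of Cmpk2 over LPS did not pass at later times. It was 1.00 at 2 h (adjusted p 0.106 in limma) and -0.50 at 4 h (adjusted p 0.715). The change of the gap between 1 h and 4 h, a contrast added after the values were seen, was -2.28 ± 0.46 for Cmpk2 (SE; adjusted p 0.00262 in limma), and it was not called for Isg15 (-0.94, adjusted p 0.399), Usp18 (-0.71, adjusted p 0.516) or Adar (-0.19, adjusted p 1). In that contrast 1.36% of genes and 1.26% of probes were called, and the Cmpk2 call was lost without set 1 (adjusted p 0.112) and without set 2 (adjusted p 0.177), with estimates of -2.23 and -2.22.

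For Isg15, Usp18, Ifih1 and Adar the gap over LPS was not called in this fit, which treats sets as independent. Isg15 gave 1.57, 1.48 and 2.55 at 1 h under LPS with IFNG, against 0.70, 0.98 and 1.13 under LPS, with no overlap between sets and a difference of 0.93 (adjusted p 0.105 in limma). Ifih1 differed by 0.38 at 1 h (95% interval -0.02 to 0.77). At 4 h the 95% interval of the difference ran from -0.55 to 0.53 for Isg15 and from -0.53 to 0.52 for Adar, and Usp18 differed by -0.49 (adjusted p 0.368). Calls thus numbered 2 of 6 at 1 h, 0 of 6 at 2 h and 0 of 4 at 4 h in limma, with 2 and 1 members at an unadjusted p under 0.05 at the later times. The shares of genes called were 1.01%, 2.75% and 4.17%, and of probes 1.11%, 2.55% and 4.02%.

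**Figure D3:**
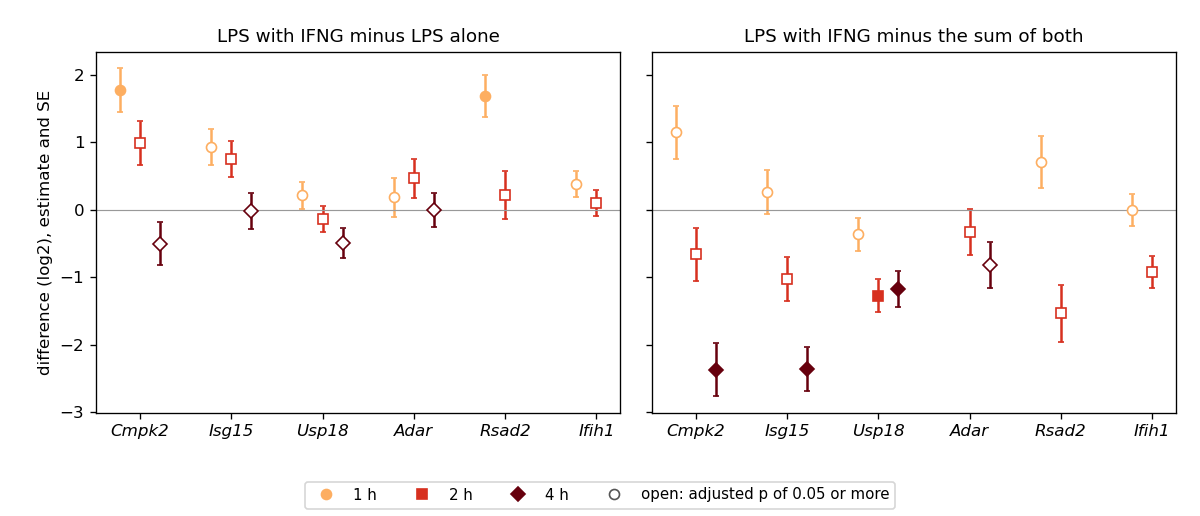
Differences on the log2 scale (vertical axis, estimate with SE) for the 6 members (horizontal axis) at 1, 2 and 4 h. The left panel shows LPS with IFNG minus LPS alone and the right panel LPS with IFNG minus the sum of the LPS and IFNG responses, with filled symbols for an adjusted p under 0.05. On the left the filled points are Cmpk2 and Rsad2 at 1 h, and on the right they are Cmpk2, Isg15 and Usp18 at 4 h and Usp18 at 2 h, all below 0.

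Against the sum of the 2 single responses, LPS with IFNG fell short at 4 h. Cmpk2 averaged 4.97 ± 0.43 under LPS with IFNG, 5.47 ± 0.29 under LPS and 1.87 ± 0.45 under IFNG (SD, n = 3 each), a departure of -2.37 ± 0.40 (SE; adjusted p 0.000121 in limma). Isg15 averaged 4.00 ± 0.31 under LPS with IFNG, 4.02 ± 0.25 under LPS and 2.34 ± 0.29 under IFNG (SD, n = 3 each), a departure of -2.36 ± 0.33 (SE; adjusted p 4.78e-06 in limma). Usp18 departed by -1.27 ± 0.24 at 2 h and -1.17 ± 0.26 at 4 h (SE; adjusted p 0.00404 and 0.00542 in limma), and Adar by -0.82 at 4 h (adjusted p 0.348). On the fold scale a departure of 0 means that the 2 fold changes multiply. For Cmpk2 the 2 single means at 4 h sum to more than 6.64, the largest value on any array. If ratios were capped there, a departure of 0 could not have been measured for Cmpk2 at 4 h. Whether a limit of the ratios lowered this or any other departure was not tested.

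At 1 h the departures ran from -0.36 for Usp18 to 1.15 for Cmpk2, and limma called none of the 5 members tested (1 had an unadjusted p under 0.05). Departures were called for 1 of 6 members at 2 h and 3 of 4 at 4 h, all below 0. At 2 h 4 of 6 members had an unadjusted p under 0.05 in limma, and at 4 h 4 of 4. In this fit, which treats sets as independent, the uncalled departures at 2 h included Rsad2 at -1.54 (95% interval -2.39 to -0.68). Isg15 was at -1.02 (95% interval -1.68 to -0.36) and Ifih1 at -0.93 (95% interval -1.41 to -0.44). Cmpk2 and Adar, at -0.66 and -0.33, had intervals that included 0. The shares called were 0.0776%, 0.371% and 2.71% of genes at 1, 2 and 4 h, and 0.106%, 0.393% and 2.58% of probes. Both Usp18 calls rest on few sets. The 2 h call was lost without set 1 or set 2, and the 4 h call without any 1 of the sets. Each was also lost when only the groups compared were fitted (adjusted p 0.221 and 0.0626) or when exact 0 was kept as a value.

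LPS with IFNG was itself higher than untreated for 4 of 6 members at 1 h, 6 of 6 at 2 h and 4 of 4 at 4 h. Among genes the shares called were 7.68%, 20.9% and 34%, and among probes 7.33%, 19.3% and 31.7%. At 2 h the call of Adar was lost without set 2. Usp18 and Adar were the members not called at 1 h, with 0.09 ± 0.11 and 0.15 ± 0.19 (SD, n = 3). So Usp18, at 0.58 ± 0.09 under IFNG alone at 1 h (SD, n = 3), had sets of 0.19, -0.02 and 0.09 when LPS was present too. The sets did not overlap, and the difference of -0.49 was not called (adjusted p 0.37 in limma).

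Set against IFNG alone, LPS with IFNG was higher for 4 of 5, 4 of 6 and 4 of 4 members at 1, 2 and 4 h, with shares of 2.52%, 8% and 11.1% of genes and 2.65%, 7.54% and 10.3% of probes called. Rsad2 was 2.70 higher at 1 h and Ifih1 1.99 higher, and at 4 h Cmpk2 was 3.10 higher, Usp18 2.22, Isg15 1.66 and Adar 1.07 higher. The calls of Cmpk2 at 1 h and of Adar at 4 h were lost without set 1 and without set 2, and that of Isg15 at 1 h without set 1 and without set 3. Over the times of LPS with IFNG, all 4 members tested changed, against 17.2% of genes and 15.9% of probes. At 4 h of LPS with IFNG the single Rsad2 array stood at 5.16, and the 2 Ifih1 arrays, both of set 3, stood at 3.92 and 4.37.

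2MA, an agonist of P2Y receptors for extracellular nucleotides, raised 5 of the 6 members at 4 h and none at 1 or 2 h. Rsad2 gave 1.79, 1.13 and 0.73 in sets 1, 2 and 3 at 4 h (mean 1.22 ± 0.54, SD, n = 3; adjusted p 0.00142 in limma). Isg15 gave 1.50, 1.12 and 0.29 (adjusted p 0.0019), Cmpk2 1.32, 0.94 and 0.46 (adjusted p 0.025), Usp18 1.07, 0.68 and 0.62 (adjusted p 0.000748) and Ifih1 0.82, 0.95 and 0.28 (adjusted p 0.00336). Every set was above 0, and set 3 was the lowest for each of these 5 genes. Adar gave 0.91, 0.25 and -0.40, so its sets lay on both sides of 0 (adjusted p 0.782 in limma).

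These 2MA calls depended on which sets were kept. Without set 1 none of the 5 was called, with means between 0.61 and 0.93. Without set 2 there were 3, as Cmpk2 and Ifih1 were lost, and without set 3 there were 5. Usp18 without set 1 was 0.65 ± 0.15 (SE; adjusted p 0.135 in limma). The adjustment also depends on everything else tested, so a lost call is not by itself a lost response. The count was 2 when only the groups compared were fitted and 2 when exact 0 was kept as a value. All genes called under 2MA were 1.41%, 1.35% and 2.03% at 1, 2 and 4 h, and probes 1.73%, 1.48% and 2%. At 1 h no member had an unadjusted p under 0.05 in limma, and at 2 h 1 of 6 did. With sets treated as independent, change over the 2MA times was called for 0 of 6 members, against 0.267% of genes and 0.243% of probes. For 5 of 6 members the unadjusted p of that change was under 0.05 in limma. Ifnb1 averaged 0.10 ± 0.24 at 4 h of 2MA (SD, n = 3).

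No member passed the test between LPS with 2MA and LPS alone. Cmpk2 averaged 5.74 ± 0.27 at 4 h of LPS with 2MA and 5.47 ± 0.29 at 4 h of LPS (SD, n = 3 each), a difference of 0.27 (95% interval -0.39 to 0.93). Isg15 gave 1.78, 1.41 and 1.84 at 1 h of LPS with 2MA, against 0.70, 0.98 and 1.13 at 1 h of LPS, with no overlap and a difference of 0.74 (95% interval 0.20 to 1.28), which was not called (adjusted p 1 in limma). None of the 15 member and time combinations tested was called by limma, and 2 had an unadjusted p under 0.05, both of Isg15. Rsad2 at 1 h and Ifih1 at 2 h differed by 0.50 (95% interval -0.15 to 1.14) and 0.41 (95% interval -0.04 to 0.85). At 1, 2 and 4 h, 0.0776%, 0.0949% and 0.362% of genes and 0.125%, 0.0688% and 0.3% of probes were called, so the members' count of 0 is near the background.

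Against untreated cells, LPS with 2MA was higher for 3 of 6 members at 1 h (Rsad2, Isg15 and Ifih1), 6 of 6 at 2 h and 3 of 3 at 4 h. The shares called were 5.45%, 17.8% and 33.5% of genes and 5.22%, 16.4% and 31.2% of probes. Without set 2 the 2 h call of Adar was lost here too. Usp18 at 4 h had 4 arrays, between 3.42 and 3.80, but both dye orientations in set 3 only, so it was not tested there. Departure from the sum of LPS and 2MA was called for 0 of 15 combinations, with 2 at an unadjusted p under 0.05, against 0.0173%, 0.0173% and 0.0604% of genes and 0.021%, 0.0276% and 0.0981% of probes at 1, 2 and 4 h. All 3 members tested changed over the times of LPS with 2MA, against 16.6% of genes and 15.3% of probes.

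The order of the group means differed among the members. For Cmpk2 the lowest means were those of 2MA at 2 h and 1 h and of LPS at 30 min and 1 h, all between -0.01 and 0.06, and the highest were LPS with IFNG, LPS and LPS with 2MA at 4 h. Only 4 of the 15 steps between neighbouring means exceeded their combined SD, and the largest of those, 1.19, separated IFNG at 4 h from LPS at 2 h. Isg15 had 4 of 15 such steps, Usp18 3 of 14, Ifih1 4 of 12, Rsad2 2 of 12 and Adar 1 of 14. In Usp18 the largest step, 1.66, lay between LPS with 2MA at 2 h and LPS with IFNG at 4 h. The step that exceeded its SD in Adar, 0.84, lay between LPS with IFNG at 2 h and at 4 h.

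The genes whose group means ran most like those of each member were found by Pearson's r over its groups, which share the arrays of a treatment and time. Over 16 groups, Cmpk2 was most like Mx1 (r = 0.99), Ifit2 (0.98) and Daxx (0.98), and Isg15 most like Rb1cc1 (0.99), the pseudogene Gm9706 (0.99) and Cmpk2 (0.97). The Gm9706 mean at 4 h of LPS was 4.02, as was that of Isg15, and whether its probe also reads Isg15 transcripts was not tested. Over the 15 groups with values, Adar was most like Herc6 (0.99), Irf7 (0.98) and Uba7 (0.98), and Usp18 most like Hap1 (0.99), Svbp (0.97) and Stard3 (0.96). Over 13 groups, Ifih1 and Rsad2 shared their closest gene, Stx11, with r of 0.98 and 0.96. Ifih1 was then most like Peli1 (0.97) and Zfpm2 (0.96), and Rsad2 most like Tnfaip2 (0.96) and Gm9706 (0.95). The groups of Ifih1 and Rsad2 leave out 4 h of every LPS treatment, so their r are not over the same groups as the others.

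Genes of the same pathways, without the 6 members, moved to different extents at 4 h. Among all 11593 genes and unnamed probes tested, 1477 were called higher at 4 h of LPS and 740 at 4 h of IFNG. Of 7 tested RNA sensors and adaptors, 6 rose under LPS and 6 under IFNG, with list medians of 2.00 and 1.17. Zbp1, a sensor of left-handed nucleic acid, averaged 3.63 ± 0.82 and Tlr3, the endosomal receptor for double-stranded RNA, 3.20 ± 0.43 at 4 h of LPS, while Sting1 was the lowest at 0.26 ± 0.32 (SD, n = 3; adjusted p 0.093 in limma). All 4 tested genes of ISG15 conjugation rose under LPS and 3 under IFNG, with medians of 1.92 and 1.12. The ligase Herc6 averaged 3.18 ± 0.38, the activating enzyme Uba7 2.33 ± 0.26 and the conjugating enzyme Ube2l6 1.27 ± 0.37 at 4 h of LPS (SD, n = 3).

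Other interferon-induced effectors had a median of 3.03 under LPS, the highest of the 6 lists, where 11 of 11 rose, and of 0.75 under IFNG, where 8 of 11 rose. Ifit2 and Ifit1, which bind RNA, averaged 5.27 ± 0.33 and 4.44 ± 0.07, and the exonuclease gene Isg20 was lowest at 0.45 ± 0.05 (SD, n = 3). Of 16 interferon ligands, receptors and signal transducers, 9 rose and 1 fell under LPS, and 6 rose under IFNG, with medians of 0.68 and 0.20. Ifnb1 and the kinase gene Jak2 averaged 3.20 ± 0.94 and 2.76 ± 0.40 at 4 h of LPS, and the IFNG receptor gene Ifngr1 fell to -0.63 ± 0.19 (SD, n = 3).

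For enzymes of the same kinds as Adar and Cmpk2, the counts of calls at 4 h of LPS were near the 28.6% of all genes called. Of 6 other RNA-editing deaminases, 1 rose and 1 fell under LPS at 4 h (median 0.03), and these were Apobec3 at 0.92 ± 0.30 and Adarb1 at -0.51 ± 0.22, with Apobec1 at 0.14 ± 0.40 (SD, n = 3). Of 10 other nucleotide kinases, 1 rose and 2 fell (median -0.13). Dck, which phosphorylates deoxycytidine, averaged 1.01 ± 0.44, Cmpk1, the cytosolic counterpart of Cmpk2, 0.12 ± 0.04, and the thymidine kinase gene Tk1 -1.38 ± 0.24 (SD, n = 3). The median of all tested genes was 0.0022 at 4 h of LPS and -0.0073 at 4 h of IFNG. Under 2MA at 4 h, 3 of the 11 effectors, 2 of the 16 signalling genes, 1 of the 7 sensors and adaptors and 1 of the 4 conjugation genes rose. No deaminase or nucleotide kinase rose, and 1 of the 10 kinases fell. Among all 11593 genes and unnamed probes tested, 167 were called higher and 68 lower at 4 h of 2MA.

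**Figure D4:**
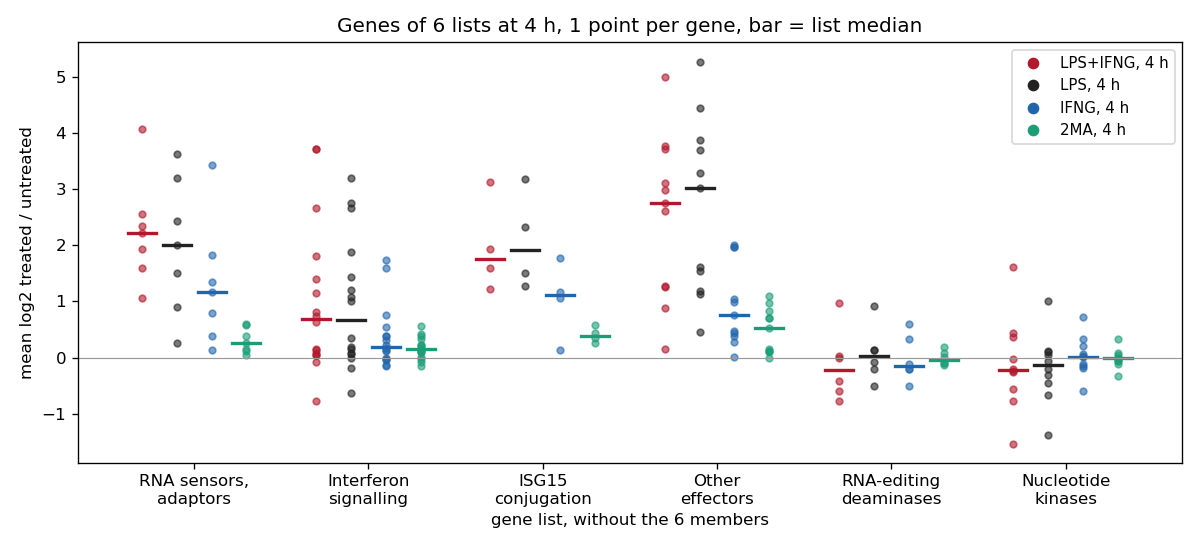
Mean log2 ratio of treated over untreated at 4 h (vertical axis) for the tested genes of 6 lists (horizontal axis), 1 point per gene, in 4 colours for LPS with IFNG, LPS, IFNG and 2MA, with a bar at each list's median. The medians under LPS are 3.03 for other effectors, 2.00 for RNA sensors and adaptors and 1.92 for ISG15 conjugation, against 0.03 for deaminases and -0.13 for nucleotide kinases.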

How the data were processed

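Arrays of 16281 probes were measured in 96 samples, 6 per group. The deposited values are log2 ratios of Cy5 over Cy3, with dyes per the labels; image analysis, background correction and normalisation by the authors are not given in the sources used here, and ratios carry no depth beyond the number of arrays. Signs were turned where treated RNA was in Cy3, exact 0 (1277 to 2773 per array) was read as missing, and a set value needed both orientations. A version that took 1 orientation where the other was missing was run first and its calls were seen. The present rule was then chosen because it follows the written design and balances the dyes. Probes with set values in at least 2 of 3 sets of every group (13698) were averaged per gene to 11593 genes and unnamed probes. Gene names came from the platform annotation, with symbols updated through RefSeq.

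Differences were tested two-sided with the limma package (3.58.1; R version 4.3.3), fitting 1 mean per group over 48 set values; figures were drawn with matplotlib 3.10.9 under Python 3.11.15. The 4 members that fail the filter were fitted by probe where groups had 2 set values. Both fits were tested on simulated data. Alternatives covered dye orientation, zeros, centring, probes, filters, spread, blocking and each set left out. Members and lists were chosen with earlier results of these data known. Named genes are the members, the 3 most alike genes of each, the 2 highest and 1 lowest of each list at 4 h of LPS, and 4 genes that check direction. Ifnb1 at other times and under 2MA, and Ifit2, were added after their values were seen.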

Additional observations from a re-analysis of the deposited data

Results flagged for a closer look

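One result was set apart because the effect of a ligand differed between 2 time points by a test of that difference. Adding IFNG to LPS raised Cmpk2 at 1 h, and at 4 h the difference lay below 0 and was not called; the change between the times was -2.28 (SE 0.46; adjusted p 0.00262 in limma, 3 sets per group). This contrast was added after the values were seen, and leaving out set 1 or set 2 ends its call. Groups of 3 sets were not tested for outlying samples.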

How the results depend on the processing

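Over 15 alternatives the 6 members gave 2825 tests, of which 2693 kept their side of the threshold, 92 lost a call, 40 gained one and none changed direction. Centring each array on its median, using every probe without a filter, and taking 1 dye orientation where the other has no value changed no call, and for the results not named here no alternative moved a count of calls by over 1.5 times. The number of members called for LPS with IFNG minus LPS was 2 of 16, against 1 with exact 0 kept as a value, 5 with the set number as a block, 5 with all arrays fitted and sets as random blocks, and 1 to 2 with 1 set left out. Change with time under 2MA was called for 0 members, against 2 with the block, 4 with all arrays and 0 to 2 with 1 set left out. Change with time under IFNG was called for 3, against 1 with exact 0 kept, 5 with the block, 5 with all arrays, 1 to 3 with 1 set left out, and 1 of 2 with both Isg15 probes averaged. Sets of one number correlated above 0.1 in 86 of 90 pairs of groups of 1 time. Their median r was 0.379, 0.44 and 0.444 at 1, 2 and 4 h, against -0.174, -0.248 and -0.263 for sets of different numbers. The values correlated were deviations from the group mean, which sum to 0 within a group. The r for different numbers is therefore tied to that for the same number and is no separate comparison. The number was not used as a block in the reported fit because not all pairs passed 0.1. Calls that differ with the block therefore depend on that choice. With the block, LPS with IFNG minus LPS was also called for Isg15 at 1 h and 2 h (adjusted p 0.0146 and 0.0334 in limma) and for Cmpk2 at 2 h (adjusted p 0.0181). The block moved no other count of calls by over 1.5 times. Of 208 tests, 10 gained a call with the block and 0 lost one. Isg15 at 1 h of IFNG gained one (adjusted p 0.012 in limma). So did Rsad2 for IFNG minus LPS at 1 h (adjusted p 0.0345 in limma). Change under IFNG was gained for Rsad2 and Usp18 (adjusted p 0.0487 and 0.0365 in limma). Change under 2MA was gained for Isg15 and Usp18 (adjusted p 0.018 and 0.00562 in limma). The response to 2MA had 5 calls, against 2 with exact 0 kept, 2 with only the groups compared, 0 to 5 with 1 set left out and, of the 2 calls of Cmpk2 and Isg15, 1 with both Isg15 probes averaged. Departure from the sum of LPS and IFNG had 4, against 2 with exact 0 kept, 2 with only the groups compared and 2 to 5 with 1 set left out. It had 5 with the block and 6 with all arrays fitted. Ifih1 at 2 h was called with both (adjusted p 0.00736 and 0.000841 in limma). Rsad2 at 2 h was called with all arrays fitted (adjusted p 0.00307 in limma). The response to IFNG had 14 of 17, against 9 with exact 0 kept, 10 to 12 with 1 set left out and 17 with all arrays fitted. IFNG minus LPS had 10, and 5 to 10 with 1 set left out, and the change of the added IFNG effect had 1, and 0 to 1. Averaging both Isg15 probes left 3 of 6 calls for LPS with IFNG minus IFNG and 1 of 2 for change under LPS with IFNG. Asking for values in all sets left 2 members, both called, for change under LPS, because fewer members were tested. Otherwise the cause was not tested. Probe by probe fits, both-probe averages and the 1-orientation rule were chosen after seeing the data. Files give no signal over background, so its part in the missing values was not examined.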
